A study of Mus musculus with 12 samples.

Results

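The genes described here encode the collagens, the laminin chains, the integrin subunits and 5 further proteins of the basement membrane and pericellular matrix. They were chosen by name alone from the protein-coding genes, as every collagen gene named Col with a type and a chain number, every laminin chain gene (Lama, Lamb and Lamc), every integrin alpha and beta gene, and Fn1, Nid1, Nid2, Sparc and Hspg2. The rule took 87 genes of 54555, under 86 symbols, since Itgam was listed under 2 identifiers. They comprised 44 collagen genes, 11 laminin chain genes, 19 integrin alpha genes, 8 integrin beta genes and the 5 others.

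Basement membranes are thin sheets of matrix on which cells rest. Laminins, each a trimer of an alpha, a beta and a gamma chain, polymerise at the cell surface, and type IV collagen forms a second network that nidogens and perlecan link to the laminin layer. Integrins are alpha-beta heterodimers in the plasma membrane that bind these proteins and fibronectin and connect them to the actin cytoskeleton. In the early mouse embryo laminin and type IV collagen are laid down beneath the primitive endoderm and the epiblast, and integrins that contain the beta1 subunit are the main laminin and fibronectin receptors of embryonic stem cells.

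RNA sequencing profiles of R1, an established mouse embryonic stem cell (mESC) line grown on gelatin-coated dishes, were compared in 12 libraries, 3 in each of 4 groups. The RA_OGTi cells were pre-treated with 25 µM Ac45SGlcNAc, an inhibitor of O-GlcNAc transferase (OGT), and then differentiated for 48 h with retinoic acid (RA) at 1 µM, without leukemia inhibitory factor (LIF). The RA_control cells had a DMSO pre-treatment and the same RA step, the mESC_OGTi cells were undifferentiated and received 25 µM of the inhibitor for 48 h, and the mESC_control cells were undifferentiated cells labelled normal. OGT adds the single sugar O-GlcNAc to proteins of the nucleus and cytoplasm, and the design sets the effect of blocking it beside that of RA and crosses the 2 treatments. RA came together with the loss of LIF, so their effects cannot be told apart, and the sources used here do not say whether the inhibitor was kept during the RA step. The stem cell medium held fetal bovine serum and LIF. The values are RNA levels and carry no measure of matrix deposited.

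Depth ran from 15553627 to 17833464 gene-assigned fragments per library. Ogt stood at 24.7 to 28.5 FPKM in RA_OGTi libraries, 19.6 to 25.3 in RA_control, 39.9 to 41.4 in mESC_OGTi and 16.4 to 20.2 in mESC_control. Its mESC_OGTi libraries all lay above the mESC_control ones. The inhibitor targets the enzyme, so the level of the transcript is no measure of the inhibition. Mgea5, which encodes the enzyme that removes O-GlcNAc, stood at 7.39 to 9.56 FPKM in RA_OGTi and 43.3 to 48.2 in RA_control, and at 9.16 to 9.81 in mESC_OGTi and 36.1 to 38.1 in mESC_control. Pou5f1, a pluripotency factor, lay at 127 to 145 FPKM in RA_OGTi, 152 to 188 in RA_control, 702 to 774 in mESC_OGTi and 746 to 765 in mESC_control. Nothing in the labels says whether same-group libraries came from separate cultures, so the p-values may reflect technical spread alone. In bulk RNA fewer cells of a type and less RNA per cell cannot be told apart, and this holds for every level given here.

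Of the 87 genes, 53 reached 1 FPKM (fragments per kilobase of gene length, scaled to library size) in at least 3 libraries and were tested; 34 did not, and of these Col15a1 reached the highest level, 1.37 FPKM. Itgad was at 0 fragments in all 12 libraries, which allows up to 3 fragments in each by counting error alone. At 1 FPKM or more in every library were 33 genes. A further 14 passed in RA-treated libraries alone, so their difference from mESCs was bound up with passing: Col1a2, Col4a5, Col5a2, Col6a1, Col6a2, Col8a2, Col11a1, Col16a1, Col20a1, Col22a1, Col23a1, Itga8, Itga11 and Lama4. Among them Col1a2, Col5a2 and Itga11 passed in exactly 3 libraries, those of RA_OGTi, so their rise with the inhibitor is bound up with passing too. Itgae passed through mESC libraries alone.

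Matrix and integrin transcripts were more often higher than lower with the inhibitor, in both states. In mESCs the inhibitor raised 12 of the 53 tested genes and lowered none at an adjusted p under 0.05 in limma on log2(FPKM + 1), against 4.60% of all 14866 genes tested called higher and 7.78% called in either direction. The percentage called lower among all genes was 3.18%. At an unadjusted p under 0.05 it lowered 2 in mESCs, Itga3 and Itga9, and limma-voom on the recovered fragments also called these 2 lower, as did the fit with the replicate block for Itga3 (-0.19, adjusted p = 0.0443, with 0.0443 to 0.275 over all alternatives). In RA-treated cells it raised 28 and lowered 3, against 17.6% of all genes higher, 14.3% lower and 31.9% in either direction. RA without inhibitor raised 37 and lowered 9, against 33.7% and 37.2% of all genes and 70.9% in either direction. RA with inhibitor raised 40 and lowered 10, against 32.0%, 36.7% and 68.7%. The median log2 fold change of the tested members and of all genes was 0.068 and 0.0053 with the inhibitor in mESCs, 0.60 and -0.035 with RA without inhibitor, 0.21 and 0.0023 with the inhibitor in RA-treated cells, and 0.66 and -0.043 with RA and inhibitor. The 53 include the 14 genes that passed in RA-treated libraries alone, so the RA counts and medians are partly bound up with passing. The 28 raised in RA-treated cells include Col1a2, Col5a2 and Itga11, which passed in RA_OGTi libraries alone. With no filter, where 86 members could be fitted, the inhibitor raised 10 members in mESCs (1.24% of all genes higher, 0.803% lower), and raised 28 and lowered 3 in RA-treated cells (8.05% of all genes higher, 5.96% lower, 14.0% either way). RA raised 53 and lowered 10 without inhibitor (38.7% of all genes either way) and raised 56 and lowered 9 with it (37.8%). In mESCs the count fell to 7 without mESC_OGTi replicate 2, mESC_OGTi replicate 3 or mESC_control replicate 2, to 8 without mESC_control replicate 1, and to 5 when the fit held the mESC libraries alone. The share of all genes called in either direction fell as well, to 2.41%, 3.60%, 2.90%, 3.33% and 3.44% in the same order. The RA comparisons share the mESC_control or mESC_OGTi libraries with the inhibitor comparison in mESCs, and the RA_control or RA_OGTi libraries with that in RA-treated cells. The inhibitor comparisons in mESCs and in RA-treated cells share no library. Both come from 1 fit with 1 estimate of the spread per gene, so their calls are not independent. Of the 12 members raised in mESCs, 10 (83.3%) were also raised in RA-treated cells, and these made up 35.7% of the 28 raised there. Over all genes tested, 430 of the 684 raised in mESCs (62.9%) were also raised in RA-treated cells, which is 16.4% of the 2618 raised there.

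**Figure D1:**
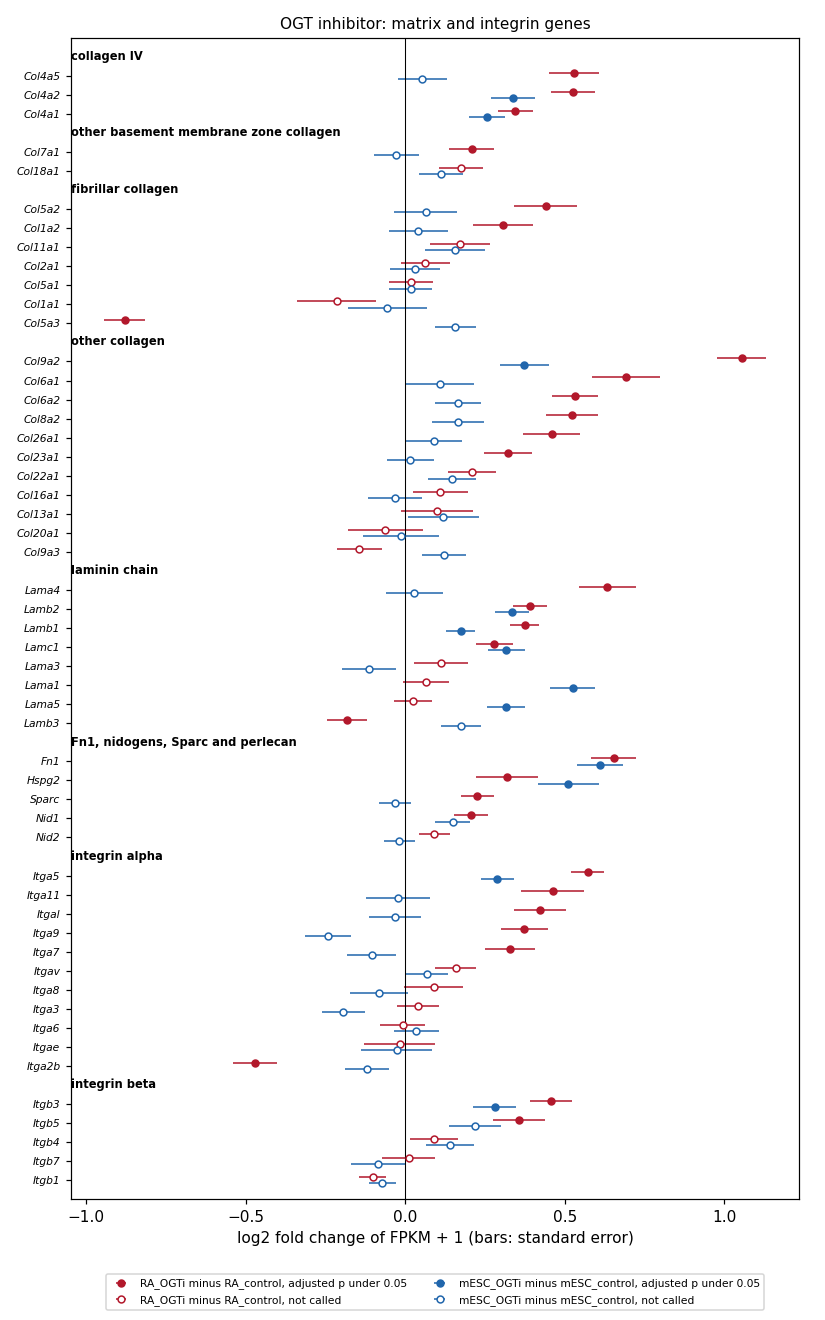
Log2 fold change of FPKM + 1 with the OGT inhibitor for 52 of the 53 tested members, by role, in RA-treated cells (red) and mESCs (blue), 3 libraries a group; bars are standard errors and filled points passed at an adjusted p under 0.05. Col9a2 lies farthest to the right (1.05 in RA-treated cells) and Col5a3 farthest to the left (-0.88), and every filled blue point lies to the right of 0.

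Type IV collagen, the network-forming collagen of basement membranes, was higher with the inhibitor and with RA. Col4a1 (ENSMUSG00000031502, chromosome 8, 11198423 to 11312826, GRCm38) had 48.7, 49.9 and 48.1 FPKM in RA_OGTi, 39.4, 37.7 and 37.7 in RA_control, 31.8, 31.7 and 36.2 in mESC_OGTi and 28.3, 26.1 and 28.5 in mESC_control. No group overlapped the next, and the order ran from RA_OGTi down to mESC_control. Its log2 fold change was 0.35 with the inhibitor in RA-treated cells (SE 0.056, adjusted p = 0.000924) and 0.26 in mESCs (SE 0.056, adjusted p = 0.0213), and 0.46 with RA without inhibitor (SE 0.056, adjusted p = 1.65e-05). Col4a2 (ENSMUSG00000031503, chromosome 8, 11312805 to 11449287), which encodes the partner chain of the same trimer, had 45.7, 43.1 and 45.3 FPKM in RA_OGTi, 31.2, 29.6 and 31.4 in RA_control, 17.3, 20.3 and 21.7 in mESC_OGTi and 15.3, 14.9 and 15.9 in mESC_control. Its groups did not overlap either, and its mean was 1.45-fold higher with the inhibitor in RA-treated cells (log2 fold change 0.53, SE 0.069, adjusted p = 0.000271). In mESCs it was 1.29-fold higher with the inhibitor (log2 fold change 0.34, SE 0.069, adjusted p = 0.0168). With RA it was 2.26-fold higher with inhibitor (1.14, SE 0.069, adjusted p = 4.66e-08) and 0.95 on the log2 scale without (SE 0.069, adjusted p = 1.94e-07). In mESCs the calls rest on few libraries. Col4a1 was no longer called without mESC_OGTi replicate 3 (adjusted p = 0.0586), mESC_control replicate 1 (0.05002) or mESC_control replicate 2 (0.0798) and when the fit held the mESC libraries alone (0.0792), with 0.00667 to 0.0798 over all alternatives. The Col4a2 call ended without mESC_OGTi replicate 2 (0.0667), mESC_OGTi replicate 3 (0.0522), mESC_control replicate 1 (0.0524) or mESC_control replicate 2 (0.0626) and when the fit held the mESC libraries alone (0.0737), with 0.00288 to 0.0737 over all alternatives.

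The levels of the chains came closer together with RA. Col4a1 was 1.06 to 1.16 times Col4a2 in RA_OGTi libraries, 1.20 to 1.27 times in RA_control, 1.56 to 1.83 times in mESC_OGTi and 1.75 to 1.84 times in mESC_control, on the FPKM scale. The ratio differed without overlap between RA_OGTi and RA_control, and between RA_control and mESC_control, at the smallest p that 3 against 3 libraries allow in an exact two-sided permutation test (0.1). It overlapped between mESC_OGTi and mESC_control (exact p = 0.3). Col4a5, a chain of the type IV networks of later basement membranes, was at 4.76 to 5.12 FPKM in RA_OGTi, 2.91 to 3.23 in RA_control, 0.802 to 0.954 in mESC_OGTi and 0.637 to 0.930 in mESC_control. It rose with the inhibitor in RA-treated cells (log2 fold change 0.53, SE 0.077, adjusted p = 0.000491). Col4a3, Col4a4 and Col4a6 stayed at or below 0.161 FPKM in every library.

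Col4a1 and Col4a2 lie head to head, and their annotated genes overlap by 22 bases, so with the strand setting of the counting not given, fragments in that overlap cannot be assigned. The promoter windows of 4 members that carry the inhibitor result are printed from RefSeq (GRCm38.p6), from 250 bases before to 50 after the gene start that RefSeq gives, 5′ to 3′ on the gene's strand. Col4a2 (chr8:11312555-11312854, plus strand) and Col4a1 (chr8:11312777-11313076, minus strand) are shown because they share 78 bases, as reverse complements, and both genes moved in the same direction. Col9a2 (chr4:121039316-121039615, plus strand) and Itga5 (chr15:103366742-103367041, minus strand) are shown because they had the largest rises with the inhibitor in RA-treated cells among a collagen and an integrin at 5 FPKM or more. Capitals mark matches on either strand to the GC box (GGGCGG or CCGCCC) and the CCAAT box (CCAAT or ATTGG), none of which overlap. The RefSeq starts of Col9a2 and Itga5 differ from the ends of the deposited gene coordinates, and those of Col4a1 and Col4a2 match them.
Col4a2: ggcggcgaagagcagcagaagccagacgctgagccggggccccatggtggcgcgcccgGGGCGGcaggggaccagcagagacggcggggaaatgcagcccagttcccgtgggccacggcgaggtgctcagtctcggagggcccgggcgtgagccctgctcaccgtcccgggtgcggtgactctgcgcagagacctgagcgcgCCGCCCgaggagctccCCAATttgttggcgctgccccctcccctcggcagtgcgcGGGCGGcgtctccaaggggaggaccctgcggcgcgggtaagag
Col4a1: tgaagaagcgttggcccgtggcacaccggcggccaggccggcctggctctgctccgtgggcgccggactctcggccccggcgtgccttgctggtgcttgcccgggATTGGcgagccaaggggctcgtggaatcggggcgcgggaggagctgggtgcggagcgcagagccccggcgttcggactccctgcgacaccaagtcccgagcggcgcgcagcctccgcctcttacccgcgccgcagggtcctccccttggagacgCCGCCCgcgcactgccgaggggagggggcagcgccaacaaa
Col9a2: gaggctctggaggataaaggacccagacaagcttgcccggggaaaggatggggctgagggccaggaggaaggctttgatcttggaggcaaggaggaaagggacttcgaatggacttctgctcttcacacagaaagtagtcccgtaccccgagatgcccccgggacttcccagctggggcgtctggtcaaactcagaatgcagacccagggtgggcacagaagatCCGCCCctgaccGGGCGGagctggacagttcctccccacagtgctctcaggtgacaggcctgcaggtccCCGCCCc
Itga5: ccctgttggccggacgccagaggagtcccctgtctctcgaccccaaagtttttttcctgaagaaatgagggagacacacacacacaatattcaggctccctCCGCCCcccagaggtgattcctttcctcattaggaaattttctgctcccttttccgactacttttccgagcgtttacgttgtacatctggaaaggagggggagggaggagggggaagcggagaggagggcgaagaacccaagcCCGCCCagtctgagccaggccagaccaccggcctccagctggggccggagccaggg
The GC box occurred 3 times in the Col4a2 window, 1 time in that of Col4a1, 3 times in that of Col9a2 and 2 times in that of Itga5, and the CCAAT box 1 time in each of the Col4a2 and Col4a1 windows. The GC box of the Col4a1 window lies in the 78 shared bases and is the same site as 1 of the 3 in the Col4a2 window. A window was given for 60 of the 87 members and 34 of the 53 tested. The GC box was in 23 of these 34 windows (67.6%) and in 35.7% of all 32851 windows, and CCAAT was in 11 (32.4%) and in 37.4%. The 32851 windows were taken without regard to expression, whereas the 34 belong to genes that passed the filter, so the shares are not matched. Of the other letters searched on both strands, TGANTCA (the AP-1 site) was in 2 of 34 windows and in 7.81% of all, GGAATG (TEAD) in 3 and 14.7%, TATAAA in 1 and 13.6%, AGATAA, a site of Gata factors, in 0 and 11.2%, and the direct repeat of the RA receptor half-site AGGTCA spaced by 5 bases in 0 and 0.00913%. A match describes letters, not a bound site.

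Col18a1 (ENSMUSG00000001435, chromosome 10, 77052178 to 77166548), a basement membrane collagen whose cleaved end is endostatin, was the collagen with the most RNA in every group. It had 168, 153 and 165 FPKM in RA_OGTi, 154, 138 and 137 in RA_control, 79.4, 85.5 and 87.1 in mESC_OGTi and 72.6, 75.8 and 84.7 in mESC_control. The RA-treated groups lay well above the mESC groups, while inhibitor and control libraries overlapped in both states. Col7a1, the anchoring fibril collagen, was near 1 to 2 FPKM (1.79 to 1.94 in RA_OGTi, 1.35 to 1.55 in RA_control, 1.14 to 1.31 in mESC_OGTi and 1.19 to 1.32 in mESC_control), and its call with the inhibitor in RA-treated cells (0.21) held in 0 of 12 fits without 1 library and was lost with the replicate block (adjusted p = 0.0654, with 0.00693 to 0.127 over all alternatives). Col18a1 rose with RA (log2 fold change 0.94 with inhibitor, SE 0.069, adjusted p = 2.42e-07, and 0.88 without, SE 0.069, adjusted p = 4.11e-07). Its own inhibitor values did not pass (0.18, adjusted p = 0.0749, in RA-treated cells and 0.11, adjusted p = 0.367, in mESCs). In RA-treated cells it passed under TPM scaling (adjusted p = 0.0207), with limma-voom (0.0231) and without RA_control replicate 1 (0.0402), with 0.0207 to 0.207 over all alternatives.

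Of 9 laminin chains tested, the inhibitor raised 5 in mESCs, namely Lama1, Lama5, Lamb1, Lamb2 and Lamc1 (4.60% of all genes tested rose). In RA-treated cells the inhibitor raised Lama4, Lamb1, Lamb2 and Lamc1, among others, and lowered Lamb3 (17.6% of all genes rose and 14.3% fell). Lama1 (ENSMUSG00000032796, chromosome 17, 67697265 to 67822645), the main alpha chain of early embryonic basement membranes, had 14.5, 15.6 and 15.1 FPKM in RA_OGTi, 14.8, 13.6 and 14.7 in RA_control, 29.9, 33.2 and 32.6 in mESC_OGTi and 19.9, 21.5 and 24.4 in mESC_control. The inhibitor groups stood apart in mESCs and overlapped in RA-treated cells. Lama1 was 1.46-fold higher with the inhibitor in mESCs (a log2 fold change of 0.53, SE 0.071, adjusted p = 0.00302), and in RA-treated cells its value was 0.07 (SE 0.071, adjusted p = 0.525). It fell by 1.03 on the log2 scale with RA and inhibitor (SE 0.071, adjusted p = 1.31e-07) and by 0.57 without (SE 0.071, adjusted p = 1.86e-05). The inhibitor effect in RA-treated cells minus that in mESCs was -0.46 (SE 0.10, adjusted p = 0.0206). That difference lost its call without RA_OGTi replicate 1 (0.0548), RA_control replicate 1 (0.05004) or mESC_OGTi replicate 2 (0.0509), with 0.00362 to 0.0548 over all alternatives.

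Lamb2 (ENSMUSG00000052911, chromosome 9, 108479736 to 108490530), a beta chain found in mature basement membranes, had 38.2, 34.6 and 38.0 FPKM in RA_OGTi, 28.7, 27.2 and 27.8 in RA_control, 12.3, 13 and 13.5 in mESC_OGTi and 9.61, 9.97 and 10.5 in mESC_control, with no overlap between groups. It rose with RA, 2.86-fold with inhibitor (log2 fold change 1.45, SE 0.053, adjusted p = 1.07e-09) and 2.78-fold without (1.39, SE 0.053, adjusted p = 1.24e-09). It also rose with the inhibitor, by 0.39 on the log2 scale in RA-treated cells (adjusted p = 0.000347) and by 0.34 in mESCs (adjusted p = 0.00622). Its sister chain Lamb1 had 33.5, 35.3 and 32.9 FPKM in RA_OGTi, 26.5, 25.6 and 25.7 in RA_control, 22.1, 22.1 and 23.9 in mESC_OGTi and 20.5, 19.4 and 20.0 in mESC_control. Lamb1 rose with the inhibitor in RA-treated cells (log2 fold change 0.37, SE 0.046, adjusted p = 0.000165). In mESCs its rise of 0.17 (SE 0.046, adjusted p = 0.0407) was called in 8 of 21 alternatives and in 4 of 12 fits without 1 library, with adjusted p from 0.033 to 0.136, and was not called with the replicate block (0.0581). The fits that kept it were those without RA_control replicate 2 or 3 and RA_OGTi replicate 2 or 3. Lamb2 relative to Lamb1 lay at 0.981 to 1.15 in RA_OGTi, 1.06 to 1.09 in RA_control, 0.555 to 0.589 in mESC_OGTi and 0.468 to 0.524 in mESC_control. RA_control and mESC_control did not overlap in this ratio (exact permutation p = 0.1, the smallest possible), and nor did RA_OGTi and mESC_OGTi (0.1).

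Lamc1 (ENSMUSG00000026478, chromosome 1, 153218922 to 153332786), the common gamma chain, was the laminin with the most RNA, at 99.8, 101 and 93.4 FPKM in RA_OGTi, 84.0, 81.3 and 76.5 in RA_control, 93.9, 98.6 and 100 in mESC_OGTi and 78.4, 72.9 and 83.5 in mESC_control. Both inhibitor groups lay above both control groups. The log2 fold change with the inhibitor was 0.28 in RA-treated cells (SE 0.058, adjusted p = 0.00408) and 0.32 in mESCs (SE 0.058, adjusted p = 0.0114). With RA its values were 0.01 with inhibitor (adjusted p = 0.939) and 0.04 without (adjusted p = 0.531), which did not pass, except under TPM scaling (0.00459 and 0.00428, with 0.00459 to 1 and 0.00428 to 0.921 over all alternatives). Lama5, the other abundant laminin alpha chain, had 57.3, 55.3 and 52.9 FPKM in RA_OGTi, 56.5, 53.1 and 53.0 in RA_control, 45.9, 51.0 and 51.2 in mESC_OGTi and 40.0, 36.7 and 41.6 in mESC_control. Its mESC_control libraries were the lowest 3 of the 12. It rose with the inhibitor in mESCs (0.32, SE 0.060, adjusted p = 0.0121) and with RA without inhibitor (0.45, adjusted p = 3.19e-05), and was at 0.02 with the inhibitor in RA-treated cells (adjusted p = 0.796). With RA and inhibitor it rose by 0.16 (adjusted p = 0.0338). The mESC call was lost without mESC_OGTi replicate 2 (0.0529) and when the fit held the mESC libraries alone (0.0524), with 0.00165 to 0.0529 over all alternatives. The call with RA and inhibitor was lost without RA_OGTi replicate 1 (0.116), RA_OGTi replicate 2 (0.0715) or mESC_OGTi replicate 1 (0.143) and with no filter (0.0546), with 9.68e-05 to 0.143 over all alternatives.

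Lamb3, a beta chain of epithelial basement membranes, was higher with RA. It stood at 6.42, 5.54 and 5.87 FPKM in RA_OGTi, 6.82, 6.61 and 7.19 in RA_control, 2.30, 2.33 and 2.17 in mESC_OGTi and 1.75, 1.94 and 2 in mESC_control. It rose 3.62-fold with RA without inhibitor (log2 fold change 1.44, SE 0.063, adjusted p = 3.43e-09). Its gene overlaps G0s2 on the other strand, which reached 9.40 FPKM. Lama3, an alpha chain of epithelial basement membranes, was between 1.53 and 2.31 FPKM in all libraries. The inhibitor call of Lamb3 in RA-treated cells (log2 fold change -0.18, adjusted p = 0.0464) held in 2 of 12 fits without 1 library, those without RA_OGTi replicate 1 or mESC_control replicate 1, and was lost with the replicate block (0.0658), with 0.0249 to 0.156 over all alternatives. Lama4, an alpha chain of mesenchymal and vascular cells, rose with the inhibitor in RA-treated cells from a low level. It had 2.73, 2.64 and 2.32 FPKM in RA_OGTi, 1.28, 1.34 and 1.26 in RA_control, 0.284, 0.492 and 0.340 in mESC_OGTi and 0.353, 0.264 and 0.412 in mESC_control (1.98-fold, log2 fold change 0.63, SE 0.090, adjusted p = 0.000423).

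Fibronectin RNA was higher with the inhibitor in both states. Fn1 (ENSMUSG00000026193, chromosome 1, 71585520 to 71653200) encodes the matrix glycoprotein bound by the alpha5-beta1 integrin. It had 102, 99.1 and 93.1 FPKM in RA_OGTi, 63.4, 63.1 and 59.2 in RA_control, 89.7, 104 and 98.6 in mESC_OGTi and 62.6, 58.6 and 69.5 in mESC_control. All 6 inhibitor libraries lay above all 6 control libraries. The mean was 1.58-fold higher with the inhibitor in RA-treated cells (log2 fold change 0.65, SE 0.071, adjusted p = 8.89e-05) and 1.53-fold in mESCs (0.61, SE 0.071, adjusted p = 0.00184). Both calls held in all 21 alternatives, and the difference between the states was 0.04 (SE 0.10, adjusted p = 0.842). With RA the values were 0.01 with inhibitor (SE 0.071, adjusted p = 0.925) and -0.03 without (SE 0.071, adjusted p = 0.680), which did not pass; under TPM scaling the median gene stood at 0.20 with RA and inhibitor and at 0.18 with RA without inhibitor, against -0.043 and -0.035 as deposited, and Fn1 turned to a rise of 0.20 without inhibitor (adjusted p = 0.0415, with 0.0415 to 0.977 over all alternatives) and was called higher by 0.28 with inhibitor (adjusted p = 0.00858, with 0.00858 to 1 over all alternatives).

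Perlecan RNA, from Hspg2 (ENSMUSG00000028763, chromosome 4, 137468769 to 137570630), rose with both treatments. This heparan sulfate proteoglycan had 74.5, 63.4 and 63.4 FPKM in RA_OGTi, 55.1, 52.8 and 52.4 in RA_control, 51.9, 55.5 and 55.4 in mESC_OGTi and 38.1, 32.1 and 43.8 in mESC_control. Each inhibitor group lay above its control, while RA_control and mESC_OGTi overlapped. Log2 fold changes with the inhibitor were 0.32 in RA-treated cells (SE 0.096, adjusted p = 0.0254) and 0.51 in mESCs (SE 0.096, adjusted p = 0.0121), and with RA 0.30 with inhibitor (adjusted p = 0.0158) and 0.49 without (adjusted p = 0.000693). In RA-treated cells the inhibitor call was lost without RA_OGTi replicate 1 (0.103), RA_control replicate 2 (0.0629) or RA_control replicate 3 (0.0655), with 0.00324 to 0.103 over all alternatives. The RA call with inhibitor was lost without RA_OGTi replicate 1 (0.0721) or mESC_OGTi replicate 1 (0.0533), with 0.000299 to 0.0721. The mESC inhibitor call was lost when the fit held the mESC libraries alone (0.0555), with 0.000633 to 0.0555.

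The nidogens, which bridge laminin and type IV collagen, were lower with RA. Nid1 had 32.1, 35.4 and 31.4 FPKM in RA_OGTi, 28.2, 28.5 and 28.5 in RA_control, 42.9, 45.6 and 47.7 in mESC_OGTi and 42.4, 39.6 and 40.5 in mESC_control. The mESC groups lay above the RA-treated groups. It fell by 0.45 with RA and inhibitor (SE 0.054, adjusted p = 1.41e-05) and by 0.51 without (SE 0.054, adjusted p = 4.98e-06), and rose by 0.21 with the inhibitor in RA-treated cells (adjusted p = 0.0133). Nid2 had 73.5, 79.0 and 73.9 FPKM in RA_OGTi, 72.9, 69.1 and 70.2 in RA_control, 96.8, 102 and 108 in mESC_OGTi and 104, 103 and 104 in mESC_control. Nid2 fell by 0.43 with RA and inhibitor (SE 0.049, adjusted p = 8.07e-06) and by 0.54 without (SE 0.049, adjusted p = 1.15e-06). It overlaps Rtraf on the other strand, which reached 88.6 FPKM, so fragments of the pair cannot be told apart where they overlap. Sparc, which encodes a collagen-binding protein, had 108, 102 and 117 FPKM in RA_OGTi, 93.8, 90.8 and 93.8 in RA_control, 87.6, 83.4 and 88.8 in mESC_OGTi and 89.0, 89.7 and 86.8 in mESC_control. The RA_OGTi libraries were the highest 3. Sparc rose with the inhibitor in RA-treated cells (0.23, SE 0.051, adjusted p = 0.00597) and with RA and inhibitor (0.33, SE 0.051, adjusted p = 0.000124), while its value with RA without inhibitor, 0.07, did not pass (adjusted p = 0.249). That value passed under TPM scaling (0.31, adjusted p = 5.31e-05), median-of-ratios scaling (0.12, adjusted p = 0.0396) and limma-voom (0.12, adjusted p = 0.0389), with 5.31e-05 to 0.440 over all alternatives.

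**Figure D2:**
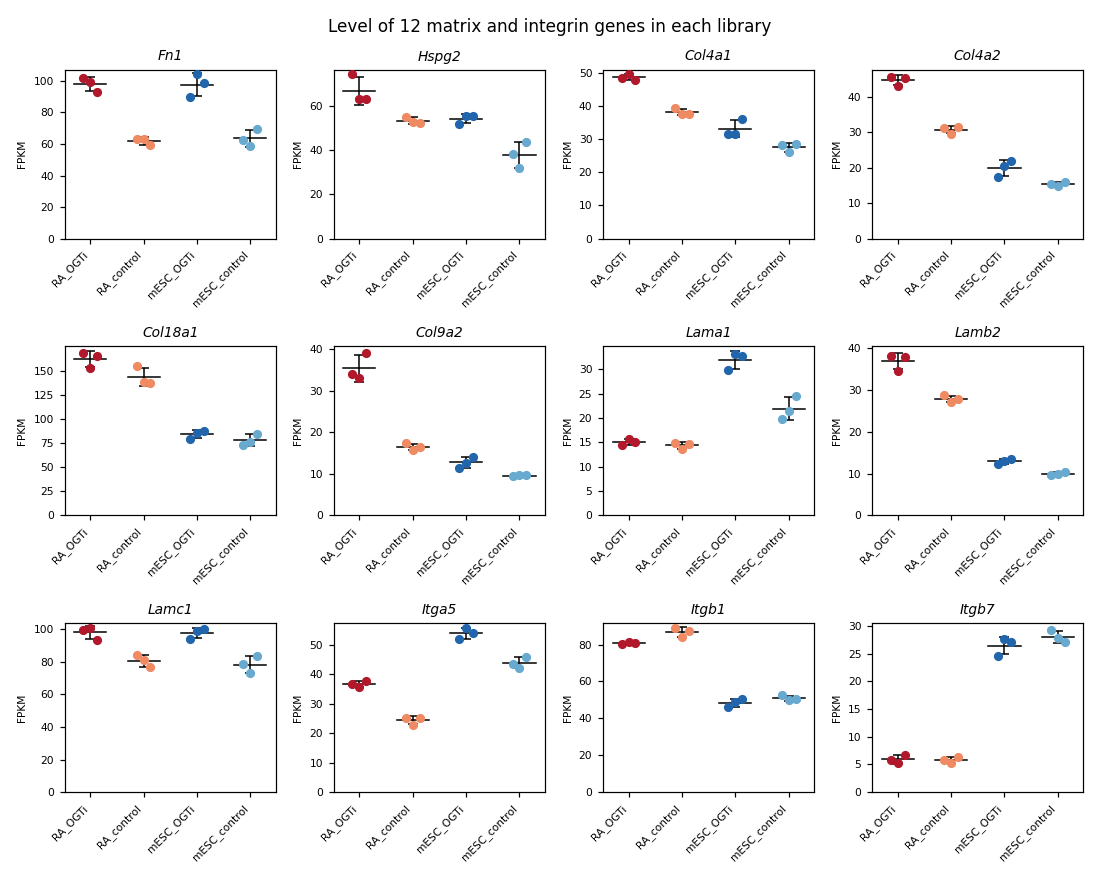
FPKM of 12 members in each of the 12 libraries (points), with group means and SD (n = 3), groups from left to right RA_OGTi, RA_control, mESC_OGTi and mESC_control. Fn1 and Lamc1 are higher in both inhibitor groups, Col18a1, Lamb2 and Itgb1 are higher and Itgb7 lower in both RA-treated groups, and Lama1 is highest in mESC_OGTi (29.9 to 33.2 FPKM).

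Among integrin alpha subunits the fibronectin receptor chain Itga5 was the only one of 11 tested called higher with the inhibitor in mESCs. That is 9.09% of the class, against 4.60% of all genes called higher and 7.78% in either direction. The median log2 fold change of the 11 was -0.032, with 3 above 0. Itga5 (ENSMUSG00000000555, chromosome 15, 103344286 to 103366763) had 36.6, 35.8 and 37.8 FPKM in RA_OGTi, 25.3, 22.9 and 25.0 in RA_control, 51.9, 55.6 and 53.8 in mESC_OGTi and 43.4, 42.2 and 45.8 in mESC_control. The 4 groups did not overlap. With the inhibitor it was 1.5-fold higher in RA-treated cells (log2 fold change 0.57, SE 0.050, adjusted p = 2.37e-05) and 1.23-fold higher in mESCs (0.29, SE 0.050, adjusted p = 0.00878), and both calls held in all 21 alternatives. With RA it fell by 0.54 with inhibitor (SE 0.050, adjusted p = 1.72e-06) and by 0.82 without (SE 0.050, adjusted p = 4.94e-08). Itga3, a laminin receptor chain, went up with RA, to 63.1, 58.5 and 63.9 FPKM in RA_OGTi and 63.0, 55.8 and 61.8 in RA_control, against 30.4, 30.4 and 34.5 in mESC_OGTi and 38.1, 34.6 and 36.5 in mESC_control (log2 fold change 0.94, SE 0.066, adjusted p = 1.53e-07 with inhibitor and 0.71, adjusted p = 1.62e-06 without). Itga5 relative to Itga3 was 0.579 to 0.611 in RA_OGTi and 0.401 to 0.411 in RA_control, and 1.56 to 1.83 in mESC_OGTi and 1.14 to 1.25 in mESC_control. Each of these pairs was apart (exact permutation p = 0.1, the smallest possible). Itga6, the laminin receptor chain of stem cells, had 16.7, 17.5 and 14.7 FPKM in RA_OGTi, 17, 17 and 15.1 in RA_control, 29.6, 27.2 and 29.0 in mESC_OGTi and 29.4, 26.6 and 27.5 in mESC_control. It fell by 0.78 with RA and inhibitor (SE 0.070, adjusted p = 1.24e-06) and by 0.73 without (SE 0.070, adjusted p = 1.96e-06), and its inhibitor values were -0.01 in RA-treated cells and 0.04 in mESCs (adjusted p = 0.948 and 0.810).

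In RA-treated cells the inhibitor also raised Itga7, Itga9, Itga11 and Itgal (log2 fold changes 0.33, 0.37, 0.46 and 0.42) and lowered Itga2b, the platelet fibrinogen receptor chain (-0.47, SE 0.070, adjusted p = 0.000553). Itga2b had 2.53, 2.36 and 2.41 FPKM in RA_OGTi, 3.91, 3.80 and 3.57 in RA_control, 1.33, 1.28 and 1.63 in mESC_OGTi and 1.62, 1.65 and 1.58 in mESC_control, and rose with RA in both settings. Itgal, a leukocyte chain, had 2.15, 1.99 and 2.20 FPKM in RA_OGTi, 1.19, 1.34 and 1.44 in RA_control, 0.914, 0.841 and 0.810 in mESC_OGTi and 0.910, 1.02 and 0.766 in mESC_control. Itga8, a receptor chain for nephronectin, rose with RA (0.94 with inhibitor and 0.77 without), but it passed the filter through RA-treated libraries alone, so this direction was bound up with being tested. Itga11 reached 1 FPKM in the RA_OGTi libraries only, so its rise with the inhibitor was likewise bound up with being tested. The call of Itga11 was lost with a pseudocount of 0.1 (adjusted p = 0.135, with 0.000637 to 0.135 over all alternatives). Itga9, a tenascin and osteopontin receptor chain, had 4.83, 4.97 and 4.93 FPKM in RA_OGTi, 3.84, 3.19 and 3.68 in RA_control, 3.82, 4.60 and 4.23 in mESC_OGTi and 5.44, 4.82 and 5.23 in mESC_control. RA_OGTi stood above RA_control and mESC_OGTi below mESC_control. The difference of the inhibitor effects was 0.61 (SE 0.10, adjusted p = 0.00628) and held in all 12 fits without 1 library, while the mESC value alone, -0.24, did not pass (adjusted p = 0.0658). Its gene overlaps the pseudogene Gm10157 on the other strand, which reached 11.5 FPKM over 74 fragments. Itgav, the common alpha chain of vitronectin receptors, had 4.89, 4.71 and 4.23 FPKM in RA_OGTi, 4.22, 4.06 and 3.79 in RA_control, 3.89, 3.51 and 3.47 in mESC_OGTi and 3.56, 3.35 and 3.32 in mESC_control. It rose with RA by 0.28 with inhibitor (SE 0.065, adjusted p = 0.00234) and by 0.19 without (SE 0.065, adjusted p = 0.0210). The call without inhibitor was lost without RA_control replicate 1 (0.0773), RA_control replicate 2 (0.0510), mESC_control replicate 2 (0.0557) or mESC_control replicate 3 (0.0629), with 0.00198 to 0.0773 over all alternatives.

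Itgb1 and Itgb7 moved in opposite directions with RA. Itgb1 (ENSMUSG00000025809, chromosome 8, 128685654 to 128733200), the partner of most matrix-binding alpha chains, had 80.2, 81.3 and 81.1 FPKM in RA_OGTi, 89.0, 84.1 and 87.5 in RA_control, 46.3, 48.7 and 50.4 in mESC_OGTi and 52.4, 50.1 and 50.3 in mESC_control. It rose 1.67-fold with RA and inhibitor (log2 fold change 0.73, SE 0.043, adjusted p = 3.48e-08) and 1.71-fold with RA without inhibitor (0.76, SE 0.043, adjusted p = 2.36e-08). Itgb7 (ENSMUSG00000001281, chromosome 15, 102215995 to 102231944), known as a leukocyte homing subunit, had 5.75, 5.21 and 6.75 FPKM in RA_OGTi, 5.75, 5.33 and 6.43 in RA_control, 24.6, 27.6 and 27 in mESC_OGTi and 29.2, 27.9 and 27.1 in mESC_control. It showed the largest fall of all members, by 1.99 with inhibitor (SE 0.084, adjusted p = 2.82e-09) and by 2.09 without (SE 0.084, adjusted p = 1.74e-09). Itgb7 made up 3.84% to 4.89% of summed integrin beta FPKM in RA_OGTi and 4.30% to 4.84% in RA_control, against 24.2% to 25.2% in mESC_OGTi and 25.7% to 26.8% in mESC_control. Its known partner chains Itga4 and Itgae stayed at or below 0.394 and 1.23 FPKM. Neither Itgb1 nor Itgb7 passed with the inhibitor (log2 fold changes -0.10 and 0.01 in RA-treated cells, -0.07 and -0.09 in mESCs).

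Itgb3 and Itgb5, which pair with Itgav, rose with the inhibitor in RA-treated cells. Itgb5 had 25.8, 26.6 and 27.7 FPKM in RA_OGTi, 21.0, 18.4 and 22.7 in RA_control, 16.4, 18.5 and 20.0 in mESC_OGTi and 15.0, 15.1 and 16.5 in mESC_control (log2 fold change 0.36, SE 0.082, adjusted p = 0.00683). Its mESC groups overlapped, and its value there, 0.22, did not pass (adjusted p = 0.132). Itgb3 had 17.4, 18.9 and 18.5 FPKM in RA_OGTi, 13.6, 12.6 and 12.9 in RA_control, 9.02, 10.4 and 10.4 in mESC_OGTi and 8.73, 7.71 and 7.58 in mESC_control. Its log2 fold change with the inhibitor was 0.46 in RA-treated cells (SE 0.067, adjusted p = 0.000508) and 0.28 in mESCs (SE 0.067, adjusted p = 0.0292). The mESC call was lost without mESC_OGTi replicate 2 (0.110), mESC_OGTi replicate 3 (0.0940), mESC_control replicate 2 (0.0989) or mESC_control replicate 3 (0.0833), with no filter (0.0614) and when the fit held the mESC libraries alone (0.0959), with 0.0155 to 0.110 over all alternatives. Itgb4, the partner of Itga6 in hemidesmosomes, lay at 3.10 to 4.23 FPKM throughout and passed in no comparison.

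Fibrillar collagens build the fibres of connective tissue and cartilage. Of the 7 tested, Col1a1, Col2a1, Col5a1 and Col5a3 rose with RA without inhibitor (33.7% of all genes tested rose), with log2 fold changes of 1.47, 1.69, 0.82 and 0.74. Col1a2, Col5a2 and Col11a1 were also called higher, but they passed the filter through RA-treated libraries alone, so their direction was bound up with being tested. The same holds for the calls of Col1a2 and Col5a2 with the inhibitor in RA-treated cells, since they reached 1 FPKM in the RA_OGTi libraries only, the call of Col5a2 (0.44) being lost with a pseudocount of 0.1 (adjusted p = 0.0751, with 4.94e-05 to 0.0751 over all alternatives). Col2a1, the cartilage collagen, had 6.77, 5.73 and 6.21 FPKM in RA_OGTi, 6.22, 5.80 and 5.73 in RA_control, 0.992, 1.26 and 1.33 in mESC_OGTi and 1.06, 1.22 and 1.16 in mESC_control. It rose 5.22-fold with RA and inhibitor (1.72, SE 0.078, adjusted p = 4.50e-09) and 5.17-fold with RA without inhibitor (1.69, SE 0.078, adjusted p = 4.79e-09). Col1a1, a chain of type I collagen, had 3.92, 4.05 and 3.48 FPKM in RA_OGTi, 5.05, 4.80 and 3.95 in RA_control, 0.679, 0.873 and 1.29 in mESC_OGTi and 1.24, 0.982 and 0.825 in mESC_control. It rose with RA (1.32, SE 0.12, adjusted p = 1.80e-06 with inhibitor and 1.47, SE 0.12, adjusted p = 6.75e-07 without). Its partner Col1a2 was lower, at 1.33, 1.10 and 1.05 FPKM in RA_OGTi, 0.763, 0.775 and 0.695 in RA_control, 0.0832, 0.110 and 0.0980 in mESC_OGTi and 0.0870, 0.0214 and 0.0912 in mESC_control, which rests on 245 to 327, 158 to 180, 16 to 20 and 4 to 18 fragments. Col1a2 rose with RA (0.98, SE 0.093, adjusted p = 2.05e-06 with inhibitor and 0.71, adjusted p = 2.96e-05 without). Its call with the inhibitor in RA-treated cells (0.31, SE 0.093, adjusted p = 0.0267) was lost without RA_control replicate 1 (0.0548) or RA_control replicate 3 (0.0691), and with a pseudocount of 0.1 (0.222), with 0.00117 to 0.222 over all alternatives; without any 1 RA_OGTi library it no longer passed the filter and was not tested. Col3a1, the main partner of type I collagen in loose connective tissue, had at most 2 fragments in any library.

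Col5a3 (ENSMUSG00000004098, chromosome 9, 20770050 to 20815067), a minor fibrillar chain, was the member with the largest fall with the inhibitor. It had 3.88, 4.33 and 4.36 FPKM in RA_OGTi, 8.70, 8.76 and 8.15 in RA_control, 5.06, 5.39 and 5.67 in mESC_OGTi and 4.49, 5.11 and 4.55 in mESC_control. The RA_control libraries were the highest 3. The fall with the inhibitor in RA-treated cells was 0.88 on the log2 scale (ratio of means 0.491, log2 fold change -0.88, SE 0.064, adjusted p = 6.36e-06), its value in mESCs was 0.16 (adjusted p = 0.163), and the difference was -1.04 (SE 0.090, adjusted p = 0.000215). It rose with RA without inhibitor (0.74, SE 0.064, adjusted p = 8.57e-07) and fell with RA and inhibitor (-0.30, SE 0.064, adjusted p = 0.00138), a call lost under TPM scaling (0.395, with 0.0011 to 0.395 over all alternatives). Col5a1, which shares trimers with it, stood at 10.9 to 11.7 FPKM in RA_OGTi, 10.1 to 11.5 in RA_control, 5.36 to 6.40 in mESC_OGTi and 5.53 to 6.01 in mESC_control, with an inhibitor value of 0.02 in both states.

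Col9a2 (ENSMUSG00000028626, chromosome 4, 121039385 to 121055322), a chain of type IX collagen that coats cartilage fibrils, was the member with the largest rise with the inhibitor in RA-treated cells. It had 33.9, 33.1 and 39.1 FPKM in RA_OGTi, 17.3, 15.8 and 16.4 in RA_control, 11.4, 12.7 and 14.1 in mESC_OGTi and 9.47, 9.60 and 9.62 in mESC_control, with no overlap between groups. The mean was 2.15-fold higher with the inhibitor in RA-treated cells (log2 fold change 1.05, SE 0.077, adjusted p = 7.00e-06) and 1.33-fold in mESCs (0.37, SE 0.077, adjusted p = 0.0178). With RA it rose by 1.41 with inhibitor (SE 0.077, adjusted p = 2.16e-08) and by 0.73 without (SE 0.077, adjusted p = 5.12e-06). The difference of the inhibitor effects was 0.68 (SE 0.11, adjusted p = 0.00520) and held in all 12 fits without 1 library. The mESC call was lost without mESC_OGTi replicate 2 (0.0602), mESC_OGTi replicate 3 (0.0561), mESC_control replicate 1 (0.0560) or mESC_control replicate 2 (0.0565), with 0.00544 to 0.0602 over all alternatives. The other type IX chains did not go with it: Col9a1 reached at most 0.648 FPKM, and Col9a3 lay at 1.82 to 2.29 FPKM in RA_OGTi, 2.26 to 2.38 in RA_control, 2.53 to 2.65 in mESC_OGTi and 2.16 to 2.38 in mESC_control. Col9a3 overlaps Tcfl5 on the other strand, which reached 38.8 FPKM.

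Of the 11 other collagens tested, 7 passed the filter through RA-treated libraries alone (Col6a1, Col6a2, Col8a2, Col16a1, Col20a1, Col22a1 and Col23a1), so their direction with RA was bound up with being tested. Of the remaining 4, Col9a2, Col13a1 and Col26a1 rose with RA without inhibitor. With the inhibitor in RA-treated cells 6 of the 11 rose (17.6% of all genes tested rose). Col6a1 and Col6a2, chains of the microfibrillar type VI collagen, were among the members with the largest rises with RA. Col6a2 had 5.56, 5.69 and 5.71 FPKM in RA_OGTi, 3.56, 3.81 and 3.44 in RA_control, 0.551, 0.811 and 0.639 in mESC_OGTi and 0.458, 0.535 and 0.461 in mESC_control. It rose with RA by 2 with inhibitor (SE 0.072, adjusted p = 9.45e-10) and by 1.63 without (SE 0.072, adjusted p = 3.70e-09), and with the inhibitor in RA-treated cells by 0.53 (SE 0.072, adjusted p = 0.000340). Col6a1 had 5.33, 4.81 and 4.32 FPKM in RA_OGTi, 2.37, 2.76 and 2.66 in RA_control, 0.413, 0.187 and 0.293 in mESC_OGTi and 0.348, 0.0910 and 0.172 in mESC_control, and rose by 0.69 with the inhibitor in RA-treated cells (SE 0.11, adjusted p = 0.000660). Col6a3, the third chain of the common trimer, stayed at or below 0.152 FPKM. Col8a2, Col23a1 and Col26a1 also rose with the inhibitor in RA-treated cells (0.52, 0.32 and 0.46), the call of Col23a1 being lost with a pseudocount of 0.1 (adjusted p = 0.105, with 0.000886 to 0.105 over all alternatives). Col8a2 lay at 3.05 to 3.42 FPKM in RA_OGTi, 1.82 to 2.12 in RA_control, 0.590 to 0.836 in mESC_OGTi and 0.453 to 0.589 in mESC_control. Among the collagens that rose with RA and did not pass with the inhibitor, log2 fold changes with RA and inhibitor were 1.25 for Col22a1, 1.15 for Col16a1, 0.55 for Col20a1 and 0.42 for Col13a1, a transmembrane collagen.

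**Figure D3:**
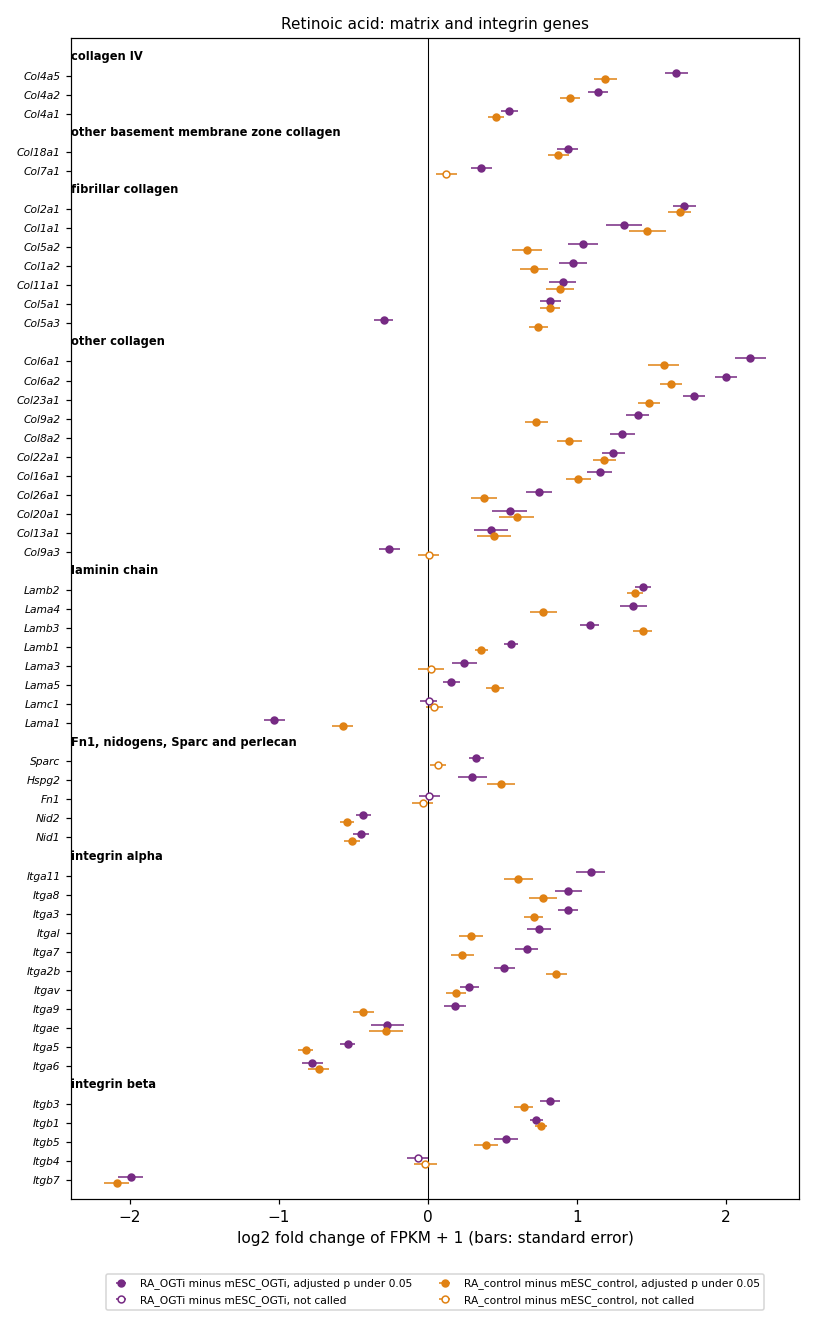
Log2 fold change of FPKM + 1 with RA for 52 of the 53 tested members, by role, with inhibitor (purple, RA_OGTi minus mESC_OGTi) and without it (orange, RA_control minus mESC_control), 3 libraries a group; bars are standard errors and filled points passed at an adjusted p under 0.05. Collagens lie mostly to the right of 0, Col6a1 reaches 2.17, and Itgb7, Lama1, Itga5, Itga6 and the nidogens lie to the left. Several of these collagens, Col6a1 among them, passed the filter through RA-treated libraries alone, so their direction was bound up with being tested.

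In all, 11 members had an inhibitor effect that differed between the states, 8 higher and 3 lower in RA-treated cells than in mESCs, against 3.90% and 3.79% of all genes and 7.69% in either direction. With no filter 6 members passed (2.51% of all genes). Besides Col9a2, Itga9, Col5a3 and Lama1 the 11 were Lama4 (0.60), Col6a1 (0.58), Col4a5 (0.48), Itgal (0.45), Itga7 (0.43), Itga5 (0.28) and Lamb3 (-0.36). Of the 11, Lama4, Col6a1 and Col4a5 passed the filter through RA-treated libraries alone. In mESC libraries they lay under 1 FPKM, where log2(FPKM + 1) understates a change. Their differences are thus bound up with passing and with this scale. A pseudocount of 0.1 left 4 higher and 3 lower (6.34% of all genes in either direction). The count without 1 library ran from 4, without RA_OGTi replicate 1, to 10, without RA_OGTi replicate 2; it was 9 without mESC_control replicate 3 and 5 to 7 without any of the other 9 libraries. Over all genes 4.26% to 6.79% were called in the fits without 1 library. Only Col9a2, Itga9 and Col5a3 kept their call in all 12 of these fits. Itga5 passed in 4 of the 12, those without RA_OGTi replicate 2, RA_control replicate 1 or 3 and mESC_control replicate 2, with adjusted p from 0.00904 to 0.0801 over all alternatives. Lama4 was lost without RA_OGTi replicate 1 (0.0524, with 0.00700 to 0.112 over all alternatives). Fewer than 7 of the 12 kept Col4a5 (6), Lamb3 (4), Col6a1 (3), Itgal (3) and Itga7 (2), and their highest adjusted p over all alternatives was 0.110, 0.0769, 0.821, 0.0827 and 0.0905.

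**Figure D4:**
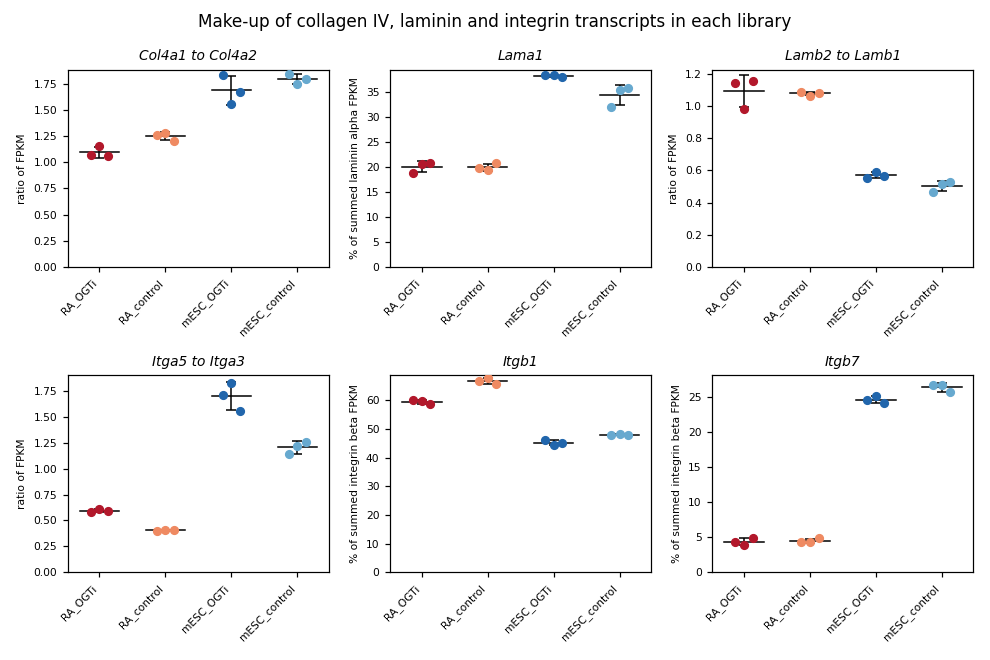
Ratios of FPKM between chains and shares of summed FPKM within laminin alpha and integrin beta chains in each of the 12 libraries (points), with group means and SD (n = 3), groups from left to right RA_OGTi, RA_control, mESC_OGTi and mESC_control. With RA the Col4a1 to Col4a2 ratio nears 1 (1.06 to 1.27 in RA-treated libraries), the share of Lama1 and of Itgb7 is lower and that of Itgb1 higher; Itga5 to Itga3 is higher with the inhibitor in both states.

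Summed over all 87 members the RNA level was 1252 to 1291 FPKM in RA_OGTi, 1045 to 1103 in RA_control, 974 to 1061 in mESC_OGTi and 867 to 927 in mESC_control. Collagens took 349.5 to 372 FPKM of this in RA_OGTi, 284 to 309.6 in RA_control, 166 to 188 in mESC_OGTi and 152 to 163 in mESC_control, and laminin chains 247 to 259, 211 to 224, 214 to 232 and 170.5 to 190.1 FPKM in the same groups. Neither sum overlapped between any inhibitor group and its control. Lama1 made up 18.8% to 20.9% of summed laminin alpha FPKM in RA_OGTi, 19.4% to 20.8% in RA_control, 38.1% to 38.5% in mESC_OGTi and 32.1% to 35.8% in mESC_control. Itgb1 made up 58.7% to 60.1% of summed integrin beta FPKM in RA_OGTi and 65.8% to 67.7% in RA_control, against 44.5% to 46.2% in mESC_OGTi and 47.8% to 48.2% in mESC_control.

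Genes that act on these proteins were taken from 6 lists, and their counts stand beside 17.6% of all genes tested called higher and 14.3% lower with the inhibitor in RA-treated cells, 4.60% and 3.18% with it in mESCs, and 33.7% and 37.2% with RA without inhibitor. In mESCs the number of rises went to 0 in each of the 6 lists in at least 1 fit without 1 library. In the fits without 1 library, 2.41% to 8.62% of all genes were called in either direction with the inhibitor in mESCs. Of 21 tested genes for collagen modification, folding and export, 7 rose and 3 fell with the inhibitor in RA-treated cells, 1 rose and 1 fell with it in mESCs, and 9 rose and 3 fell with RA without inhibitor. Serpinh1, the collagen-specific chaperone, rose by 0.46 with the inhibitor in RA-treated cells (adjusted p = 0.000553) and by 1.73 with RA without inhibitor (adjusted p = 1.47e-09), and the prolyl hydroxylase genes P4ha2 and P4ha1 by 1.21 and 1.07 with RA. Its call with the inhibitor in mESCs (0.34, adjusted p = 0.0147) was lost without mESC_OGTi replicate 2 (0.0528), mESC_OGTi replicate 3 (0.0528) or mESC_control replicate 1 (0.0566), with 0.00281 to 0.0566 over all alternatives. Of 11 genes for propeptide removal and crosslinking, 4 rose and 2 fell with the inhibitor in RA-treated cells, 1 rose with it in mESCs, and 6 rose and 4 fell with RA without inhibitor. Pxdn, the peroxidase that forms the sulfilimine crosslinks of type IV collagen, rose by 0.54 with the inhibitor in RA-treated cells (SE 0.054, adjusted p = 5.65e-05) and its effect differed from that in mESCs by 0.58 (adjusted p = 0.00179). Loxl4, a lysyl oxidase-like enzyme, fell by 0.81 with the inhibitor in RA-treated cells (SE 0.097, adjusted p = 0.000154) and rose with RA by 1.36. Pcolce, which speeds the removal of procollagen ends, fell by 2.98 with RA (SE 0.078, adjusted p = 8.31e-11).

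Of 25 other basement membrane and matrix genes, 16 rose and 3 fell with the inhibitor in RA-treated cells, 2 rose with it in mESCs, and 19 rose and 4 fell with RA without inhibitor. Ntn1, a netrin that binds laminin networks, Tgfbi and Fbn2, a microfibril protein, had the largest inhibitor rises by the naming rule (0.89, 0.83 and 0.83). The rises in mESCs were those of Tgfbi and Fbln1, and both calls ended without any 1 of mESC_OGTi replicates 2 and 3 and mESC_control replicates 1, 2 and 3 (adjusted p over all alternatives 0.0114 to 0.140 and 0.0114 to 0.134). The call of Tgfbi also ended without mESC_OGTi replicate 1, RA_control replicate 1 or RA_control replicate 2, and that of Fbln1 without RA_OGTi replicate 1 or 2. With RA Tinagl1, Mfap2 and Thbs1 rose by 2.55, 2.47 and 2.42. Of 14 matrix receptors other than integrins, 3 rose and 1 fell with the inhibitor in RA-treated cells, 1 rose with it in mESCs, and 9 rose and 4 fell with RA, with Gpc1, a glypican, and Dag1, dystroglycan, raised by 1.33 and 1.00. With the inhibitor in RA-treated cells Gpc1 rose by 0.28 (adjusted p = 0.0117) and Sdc4 by 0.27 (adjusted p = 0.00877). The receptor that fell with the inhibitor, Gpc4 (-0.23), passed in 5 of 12 fits without 1 library, was lost without RA_OGTi replicates 1 or 3, RA_control replicates 1 or 2, mESC_OGTi replicates 2 or 3 or mESC_control replicate 1, and did not pass with the replicate block (adjusted p = 0.0507, with 0.0154 to 0.161 over all alternatives). Of 33 genes of the adhesion complex inside the cell, 8 rose and 8 fell with the inhibitor in RA-treated cells, 4 rose and 2 fell with it in mESCs, and 14 rose and 12 fell with RA. Dock1 rose by 0.45 with the inhibitor in RA-treated cells (SE 0.059, adjusted p = 0.000269) and by 0.29 in mESCs (adjusted p = 0.0153). Its mESC call was lost without mESC_OGTi replicate 2 (0.0526) or 3 (0.0542), or mESC_control replicate 1 (0.0563) or 2 (0.0519). Tgfb1i1 rose by 0.41 in RA-treated cells (adjusted p = 0.00919), a call lost with a pseudocount of 0.1 (0.0535). Vcl, which encodes vinculin, fell by 0.43 with the inhibitor in RA-treated cells (SE 0.040, adjusted p = 3.16e-05) and by 0.26 in mESCs (SE 0.040, adjusted p = 0.00583). Of 23 matrix proteases and inhibitors, 8 rose and 4 fell with the inhibitor in RA-treated cells, 2 (Hpse and Mmp11) rose with it in mESCs, and 16 rose and 5 fell with RA, among them the plasminogen activators Plat and Plau (2.21 and 1.99) higher and the inhibitor gene Timp1 lower (-1.73). The calls of Hpse and Mmp11 in mESCs ended without any 1 of the 6 mESC libraries and with the replicate block (0.0510 and 0.0507), with 0.0223 to 0.135 and 0.0273 to 0.126 over all alternatives. That of Hpse also ended without RA_OGTi replicate 1 or any 1 of the RA_control libraries.

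Markers of cell types that make much matrix moved with some of these results, and their part in them was not tested. All 9 primitive and parietal endoderm markers were tested. Of these, 9 rose with RA without inhibitor and 8 with RA and inhibitor (33.7% and 32.0% of all genes tested rose). With the inhibitor in RA-treated cells 3 rose and 0 fell (17.6% and 14.3% of all genes), and the median log2 fold change of the 9 was -0.014. In mESCs their log2 fold changes with the inhibitor were -0.15 to 0.27, with the lowest adjusted p at 0.0894. Their summed level was 27.1 to 29.3 FPKM in RA_OGTi, 23.9 to 26.6 in RA_control, 8.88 to 10.2 in mESC_OGTi and 7.72 to 8.71 in mESC_control. Sox17 was at 1.76 to 2.50 FPKM in RA_OGTi, 1.80 to 2.04 in RA_control, 0.623 to 1.01 in mESC_OGTi and 0.373 to 0.794 in mESC_control. Of 11 fibroblast or feeder markers 4 were tested (log2 fold changes with the inhibitor -0.16 to 0.27 in RA-treated cells and -0.08 to 0.10 in mESCs), 2 (Dcn and Fap) were at 0 in all 12 libraries, and 7 never reached 1 FPKM. Their summed level was 29.4 to 30.6 FPKM in RA_OGTi, 25.7 to 29.4 in RA_control, 16.7 to 18.7 in mESC_OGTi and 17.3 to 18.8 in mESC_control. Of 5 endothelial markers 4 were tested, and their sum was 16.4 to 16.9 FPKM in RA_OGTi, 12.3 to 13.6 in RA_control, 30.0 to 33.5 in mESC_OGTi and 24.4 to 26.3 in mESC_control. Trophoblast marker sums lay at 18.5 to 20.5, 14.9 to 17.4, 34.8 to 39.4 and 28.4 to 33.1 FPKM, neural ones at 17.6 to 22.1, 23.4 to 25.5, 45.8 to 54.1 and 39.8 to 43.4, visceral endoderm ones at 12 to 13.6, 13.5 to 15.5, 8.18 to 9.35 and 7.84 to 9.05, and mesoderm ones at 3.97 to 4.37, 2.91 to 3.52, 3.71 to 4.77 and 3.53 to 4.43, in the same group order. With RA without inhibitor 33.7% of all genes rose and 37.2% fell. Of 4 tested neural markers 3 rose and 1 fell, and of 4 endothelial ones 2 rose and 1 fell, although both sums were lower. These counts were the same with RA and inhibitor (32.0% and 36.7% of all genes). Without inhibitor 2 of 5 trophoblast markers rose and 3 fell. It was 3 and 1 of 4 for visceral endoderm and for fibroblast markers, and 0 and 1 of 1 for mesoderm. A sum weighs most the genes with most RNA. The 6 pluripotency markers summed to 239 to 257 FPKM in RA_OGTi, 291 to 325 in RA_control, 1874 to 1917 in mESC_OGTi and 1893 to 1900 in mESC_control. With the inhibitor in RA-treated cells 1 of the 6 rose and 4 fell. Of the tested endothelial markers 2 rose and 0 fell there, of trophoblast 2 and 0, of neural 0 and 2, of visceral endoderm 0 and 1, of mesoderm 1 and 0, and of fibroblast 0 and 0. In mESCs 1 endothelial marker rose, and 1 trophoblast marker rose and 1 fell (4.60% and 3.18% of all genes). No other marker was called there.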

How the data were processed

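The data were gene-level FPKM deposited by the authors for 12 RNA sequencing libraries, with gene length (in bases) and coordinates in the deposited table. The submitters' processing notes name HISAT2 2.0.5, featureCounts 1.5.0 and the build GRCm38; the sources used here give neither their settings, strandedness included, nor how FPKM was calculated. Multiplied by gene length, 100% of the FPKM came out as whole fragments within 0.02, at 15553627 to 17833464 per library, and these were used for the limma-voom alternative. The implied totals differ from these (1.06 to 1.11 fragments per implied fragment in mESC and 0.883 to 0.934 in RA libraries), so the deposited FPKM carry a further scaling.

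All 12 libraries entered 1 limma fit (version 3.58.1, R 4.3.3) of log2(FPKM + 1) with a mean-variance trend. It covered the 14866 of 54555 genes that reached 1 FPKM in 3 or more libraries, and tests were two-sided, with Benjamini-Hochberg adjustment over all genes tested and a threshold of 0.05; fold changes on this scale understate low genes. The script was tested on simulated data. Results were recomputed with a pseudocount of 0.1, without the filter, with a mean of at least 5 FPKM, median-of-ratios and TPM scaling, a fit of the compared groups only, no trend, the replicate block, limma-voom and leaving out each library. Counts of 0 and intervals cover counting error only.

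The members, marker lists and gene lists were chosen with earlier results of these data known. Named in full were Fn1, Sparc, Nid1, Nid2, Hspg2, Col4a1, Col4a2, Col18a1, Col1a1, Col1a2, Lama1, Lama5, Lamb1, Lamc1, Itga5, Itga6, Itgav, Itgb1 and Itgb5, plus the 4 largest called rises and falls per comparison with a group mean of at least 5 FPKM; other called members were named or summarised, and up to 3 genes per list and comparison were named by size of change. For 1 tested member the single-gene values are not reported here; it is in the counts and sums.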

Additional observations from a re-analysis of the deposited data

Results flagged for a closer look

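For 11 members the inhibitor's log2 effect differed between the states by the test of the difference itself (limma, adjusted p under 0.05, effect in RA-treated cells minus that in mESCs). The positive differences were 0.68 for Col9a2, 0.61 for Itga9, 0.60 for Lama4, 0.58 for Col6a1, 0.48 for Col4a5, 0.45 for Itgal, 0.43 for Itga7 and 0.28 for Itga5. Among them Lama4, Col6a1 and Col4a5 passed the filter through RA-treated libraries alone, so their differences were bound up with being tested. The negative ones were -1.04 for Col5a3, -0.46 for Lama1 and -0.36 for Lamb3. Col5a3 (adjusted p = 1.04e-06 to 0.00112), Col9a2 (0.000887 to 0.0155) and Itga9 (0.000391 to 0.0187) passed under every alternative that tested them. Col6a1 was at 0.0910 to 0.413 FPKM in mESC libraries, and its difference did not pass with limma-voom on the recovered fragments (adjusted p = 0.821, the highest of its alternatives, the lowest being 0.0302).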

How the results depend on the processing

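Of the single-gene results under the alternatives, 5057 kept direction and side of the threshold, 215 lost a call, 44 gained one and 1 reversed, Fn1 with RA without inhibitor under TPM scaling (0.20). Counts of members called are given with the percentage of all genes tested called in the same fit. Members called with the inhibitor in mESCs numbered 12 (7.78%), 5 in a fit of the compared groups only (3.44%) and 7 to 13 without 1 library (2.41% to 8.62%). With RA without inhibitor they numbered 46 (70.9%), and 20 under the stricter filter, which tested 23 members (77.6%). Without 1 library they numbered 43 to 46 (67.1% to 71.1%). With the inhibitor in RA-treated cells they numbered 31 (31.9%), 14 under the stricter filter (39.6%) and 25 to 30 without 1 library (23.9% to 31.4%). With RA and inhibitor they numbered 50 (68.7%), 21 under the stricter filter (76.1%) and 42 to 50 without 1 library (64.7% to 69.7%). Differences between the states numbered 11 (7.69%), with 7 at a pseudocount of 0.1 (6.34%) and 6 with no filter (2.51%). They numbered 6 under the stricter filter (11.7%) and 4 to 10 without 1 library (4.26% to 6.79%). TPM scaling gave 41 higher and 8 lower with RA without inhibitor, and 42 and 7 with it. Of all 14866 genes it gave 6576 higher and 3756 lower without inhibitor, and 6703 and 3421 with it. Fewer genes tested or fewer samples apply to the filters and omitted libraries; the cause of the other changes was not tested. Low members such as Col1a2, at 4 to 20 fragments in mESC libraries, are limited by depth.

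Same-numbered libraries deviated together with correlations of -0.021 to 0.123, not over 0.1 in every pair, so the numbers were not taken as pairing the libraries. With the replicate block the counts were 12, 45, 30, 48 and 10 in the order above, against 7.70%, 71.5%, 32.8%, 69.3% and 8.23% of all genes. Of the 12 in mESCs, 11 were then higher and 1, Itga3, lower (-0.19, adjusted p = 0.0443), and Lamb1 was no longer called.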
